A study of Mus musculus with 5 samples.

Results

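The ID proteins and the E protein factors were followed in group 3 innate lymphoid cells (ILC3) and CD4 T cells of the mouse through 6 genes, Id1, Id2, Id3, Tcf3, Tcf4 and Tcf12. These genes were taken by name, through their NCBI gene numbers, from the 27179 genes of the deposited count table. Messenger RNA was counted in 3 libraries of ILC3, sorted by flow cytometry as CD45+CD3-CD127+ cells positive for a green fluorescent reporter, and in 2 libraries labelled CD4 T, sorted as CD45+CD3+CD4+ cells. All cells came from wild type mice of the C57BL/6 strain, 3 in number. The labels give no treatment and no age, and they do not say which allele carries the reporter. They also do not tie a replicate number to a mouse, so a p-value here reflects only how far these 5 libraries spread, and part of that spread may be technical.

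E proteins are basic helix-loop-helix factors that bind DNA as dimers at the E box, a short palindrome-like motif. ID proteins keep the helix-loop-helix but lack the basic DNA-binding region, so a dimer of an ID protein with an E protein cannot bind the E box. Id2 is required for the development of innate lymphoid cells, Id3 is known for its role downstream of the T cell receptor, and Tcf4 is the factor that sets up plasmacytoid dendritic cells. Tcf3, which encodes the E2A proteins, and Tcf12, which encodes HEB, drive early B and T cell development.

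The libraries held between 15123715 and 25956023 counts. Levels are given as CPM, counts per 1000000 counts of a library after TMM scaling of library sizes. Genes of immunoglobulin and T cell receptor segments took from 6.56% to 29.8% of a library. Of 8 markers of ILC3, 8 were higher in ILC3, but 1 of them, Il7r, encodes CD127, on which these cells were sorted. The libraries labelled CD4 T held Cd4 at 142 and 90.05 CPM, and they also held Siglech, a receptor of plasmacytoid dendritic cells, at 745 and 814 CPM and C1qc, a complement gene of macrophages, at 578 and 527 CPM. Transcripts of CD8 T cells, named after their values were seen, stood above Cd4 in them, with Cd8a at 245 and 189 CPM, Cd8b1 at 336 and 433 CPM and the granzyme gene Gzma at 2065 and 3200 CPM, and all 3 were lower in ILC3 in edgeR's test. CD4 T is therefore used here as the label of these libraries. In bulk libraries such as these, fewer cells of a type and less RNA per cell cannot be told apart.

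All 6 genes passed the filter on low counts and were tested. In ILC3, Id2 was higher, Id3 and Tcf4 were lower, and Id1, Tcf3 and Tcf12 did not pass the test. The test was edgeR's quasi-likelihood F test over 12747 genes with Benjamini-Hochberg adjustment, and a gene was called at an adjusted p under 0.05. Thus 1 of the 6 was called higher, where 6.46% of all tested genes were, and 2 were called lower, where 7.21% were. The values of ILC3 and CD4 T did not overlap for 5 of the 6, but 55.0% of all tested genes had groups that did not overlap. The plot of CPM by library shows these levels.

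**Figure D1:**
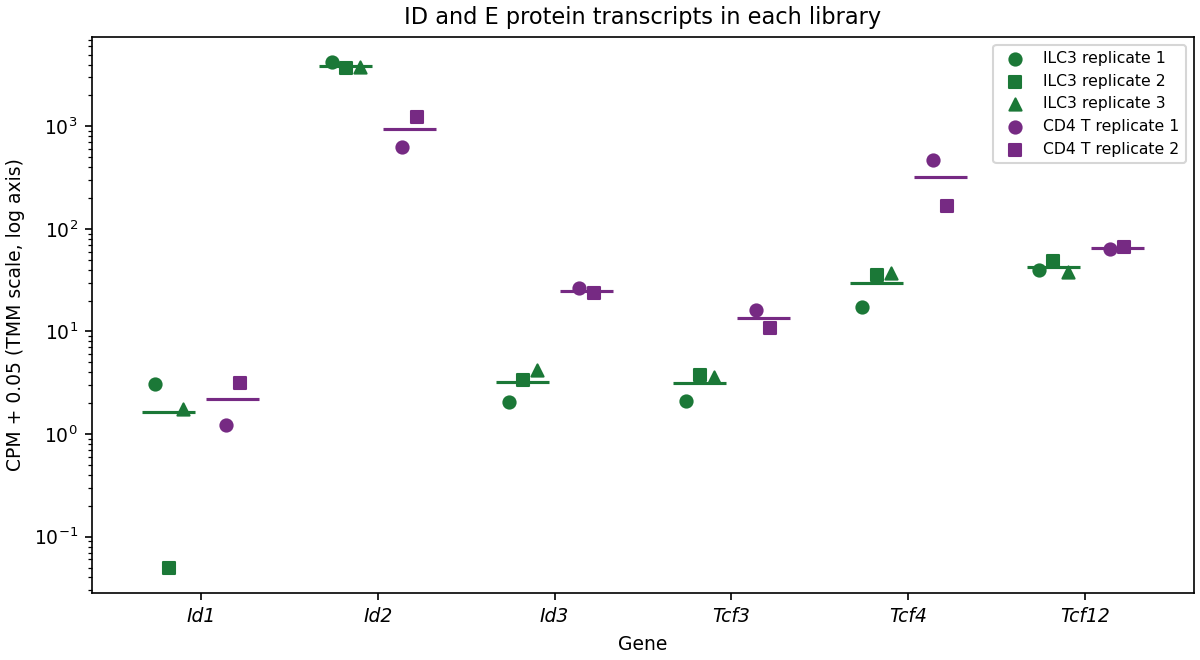
CPM plus 0.05 on a log axis for the 6 genes, with ILC3 libraries in green, CD4 T libraries in purple and horizontal bars at the group means. Id2 lies between 3673 and 4233 CPM in ILC3, above both CD4 T libraries, while Id3, Tcf3, Tcf4 and Tcf12 lie lower in ILC3 and the Id1 points overlap.

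Promoter stretches of 3 of these genes are shown, each with the E box, written CANNTG, which E proteins bind. Of the rest, Id3 had no base outside exons in its window, Tcf4 was not searched and Id1 had no window at hand. Their promoters are thus not said to lack the motif. The sequences are RefSeq promoter windows of GRCm38.p6, printed on the strand of the gene from 250 bases before the transcript start of the window up to the first base of any GENCODE exon, with the E box in capitals. For Tcf3 and Tcf12 that transcript start lies inside the gene span given below, so distances count from it and not from the end of the gene.

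Id2, chr12:25096254-25096342, minus strand: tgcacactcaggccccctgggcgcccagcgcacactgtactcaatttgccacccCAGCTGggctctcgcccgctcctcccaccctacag

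Tcf3, chr10:80433648-80433885, minus strand: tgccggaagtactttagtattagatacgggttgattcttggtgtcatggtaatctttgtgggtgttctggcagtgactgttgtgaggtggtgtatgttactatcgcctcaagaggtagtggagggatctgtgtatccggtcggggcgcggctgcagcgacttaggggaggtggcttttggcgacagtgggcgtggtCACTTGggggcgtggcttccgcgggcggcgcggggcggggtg

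Tcf12, chr9:72111872-72112069, minus strand: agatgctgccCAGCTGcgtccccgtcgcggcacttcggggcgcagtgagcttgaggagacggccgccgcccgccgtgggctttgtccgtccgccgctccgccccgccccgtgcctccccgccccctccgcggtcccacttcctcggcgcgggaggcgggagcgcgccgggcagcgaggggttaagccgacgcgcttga

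The Id2 stretch, from the ID gene that was higher in ILC3, held 1 E box of the form CAGCTG, whose first base lies 196 bases before the transcript start. The Tcf12 stretch, from the first of its windows, held the same form 240 bases before its transcript start, and the Tcf3 stretch held CACTTG at 54 bases. Of 27025 RefSeq genes, each taken with its first window, 66.0% had CANNTG and 12.8% had CAGCTG in the 250 bases before the start, read on both strands. Among the 9739 of them that were tested, the shares were 57.4% and 11.3%. The printed stretches are shorter than 250 bases, with 89 for Id2, so these shares are no direct measure for them. CANNTG and CAGCTG overlap as motifs, since the second is a form of the first. A match describes the letters of the window and does not show binding.

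Id2 (NCBI gene 15902, minus strand of chromosome 12, 25093799 to 25096092 in GRCm38) was higher in ILC3. Its level was 4233, 3673 and 3763 CPM in ILC3 replicates 1 to 3. In CD4 T replicates 1 and 2 it was 630 and 1239 CPM. The ILC3 libraries lay close together, with a highest value 1.15 times the lowest, and all 3 stood above both CD4 T libraries, which differed by 1.97 times. The mean was 3890 ± 301 CPM (SD, n = 3) for ILC3, while for CD4 T it was 934 ± 431 CPM (SD, n = 2). The log2 fold change of ILC3 over CD4 T was 2.06 (SE 0.401, edgeR adjusted p = 0.0235), or 4.16-fold. Leaving out any ILC3 library ended the call, with an edgeR adjusted p of 0.0763, 0.0819 and 0.0725 for replicates 1 to 3, as did scaling by library size alone (log2 1.58, edgeR adjusted p = 0.0582). The difference was 1.66 on the log2 scale when CD4 T replicate 1 was left out and 2.64 when CD4 T replicate 2 was.

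Several marker sums were lower in CD4 T replicate 1, the library with less Id2. The summed level of 8 CD4 T cell markers was 1280 CPM there and 3360 CPM in replicate 2, and that of 6 regulatory T cell markers was 1180 and 3170 CPM, with Tnfrsf4 alone at 221 and 1601 CPM. Cd4 went the other way, at 142 and 90.05 CPM, and Foxp3, the lineage factor of regulatory T cells, was 63.0 and 65.7 CPM. Sums of NK and ILC1 markers (418 and 1430 CPM), macrophage and monocyte markers (2160 and 2950 CPM) and ILC3 markers (327 and 539 CPM) were also lower in replicate 1. The same held for CD8 and γδ T cell markers (2650 and 3940 CPM) and ILC2 markers (251 and 418 CPM). Epithelial (24.1 and 48.2 CPM) and conventional dendritic cell markers (474 and 483 CPM) were lower there too. Yet 6 of the 9 macrophage and monocyte markers were higher in replicate 1 and 3 in replicate 2, among the latter Lyz2 (658.5 and 1592 CPM). Sums of plasmacytoid dendritic cell (3980 and 3620 CPM), B and plasma cell (35200 and 21800 CPM) and endothelial and stromal markers (35.0 and 22.9 CPM) were higher in replicate 1. Gene values here were chosen after they were seen, and the part of cell make-up in the Id2 difference was not tested.

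Id3 (gene 15903, plus strand of chromosome 4, 136143822 to 136145392) went in the opposite direction to Id2. It was 2.02, 3.33 and 4.21 CPM in the ILC3 libraries, from 56, 52 and 72 counts. In the CD4 T libraries it was 26.5 and 23.6 CPM, from 668 and 435 counts. The CD4 T values were close to each other and every ILC3 value lay far below them. The log2 fold change was -2.97 (SE 0.526, edgeR adjusted p = 0.0176), so the level in CD4 T was 7.86-fold that in ILC3. Leaving out ILC3 replicate 1, ILC3 replicate 2 or CD4 T replicate 1 ended the call, at an edgeR adjusted p of 0.056, 0.0631 and 0.0698.

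Id1 (gene 15901, plus strand of chromosome 2, 152736251 to 152737410), a target of BMP signalling in many cell types, varied widely between libraries of 1 group. The ILC3 libraries held 84, 0 and 29 counts, or 3.03, 0 and 1.70 CPM, where a count of 0 allows up to 0.192 CPM. The CD4 T libraries held 30 and 57 counts, or 1.19 and 3.09 CPM. The groups overlapped, and the log2 fold change of -0.43 had an SE of 1.78 (edgeR adjusted p = 0.894). Its sign changed when ILC3 replicate 2 (0.15) or CD4 T replicate 2 (0.42) was left out. Id4, the remaining ID gene, did not pass the filter on low counts and was not tested. It had 6, 19 and 9 counts in ILC3 and 0 in both CD4 T libraries, at least 8.19-fold higher in ILC3 against 3 counts over the CD4 T libraries. Id4 overlaps 2 annotated genes of the opposite strand, and the labels do not state how strand was handled in counting, so reads of these genes cannot be told apart.

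Among the E protein genes, Tcf4 (gene 21413, plus strand of chromosome 18, 69343429 to 69687967) had the largest difference of the 6 over all 5 libraries. It was 17.1, 35.2 and 36.7 CPM in the ILC3 libraries. In the CD4 T libraries it was 468 and 168 CPM. Both CD4 T libraries stood above all ILC3 libraries, yet they differed from each other by 2.79 times. The log2 fold change was -3.42 (SE 0.542, edgeR adjusted p = 0.013), a level in CD4 T 10.7-fold that in ILC3. The call held in each fit that left out 1 library, with edgeR adjusted p from 0.00739 to 0.0491. The difference was -2.50 on the log2 scale once CD4 T replicate 1, the library with the highest level, was left out, and Id3 then had the larger difference (-2.88).

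Tcf3 (gene 21423, minus strand of chromosome 10, 80409541 to 80433976) was 2.06, 3.72 and 3.57 CPM in ILC3. In CD4 T it was 16.2 and 10.7 CPM. The groups did not overlap, and the log2 fold change of -2.11 (SE 0.628) missed the threshold (edgeR adjusted p = 0.0666). It passed with library size alone (log2 -2.67, edgeR adjusted p = 0.0359), in limma-voom (adjusted p = 0.0397) and in the DESeq2 Wald test (adjusted p = 0.00571). Counts were made per gene, so the E12 and E47 splice products of Tcf3 could not be compared.

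Tcf12 (gene 21406, minus strand of chromosome 9, 71844252 to 72111893) had the smallest difference of the E protein genes. It was 40.1, 49.0 and 38.1 CPM in ILC3. In CD4 T it was 63.7 and 67.2 CPM. The groups did not overlap but lay close, and the log2 fold change of -0.63 (SE 0.275) missed the threshold (edgeR adjusted p = 0.166).

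**Figure D2:**
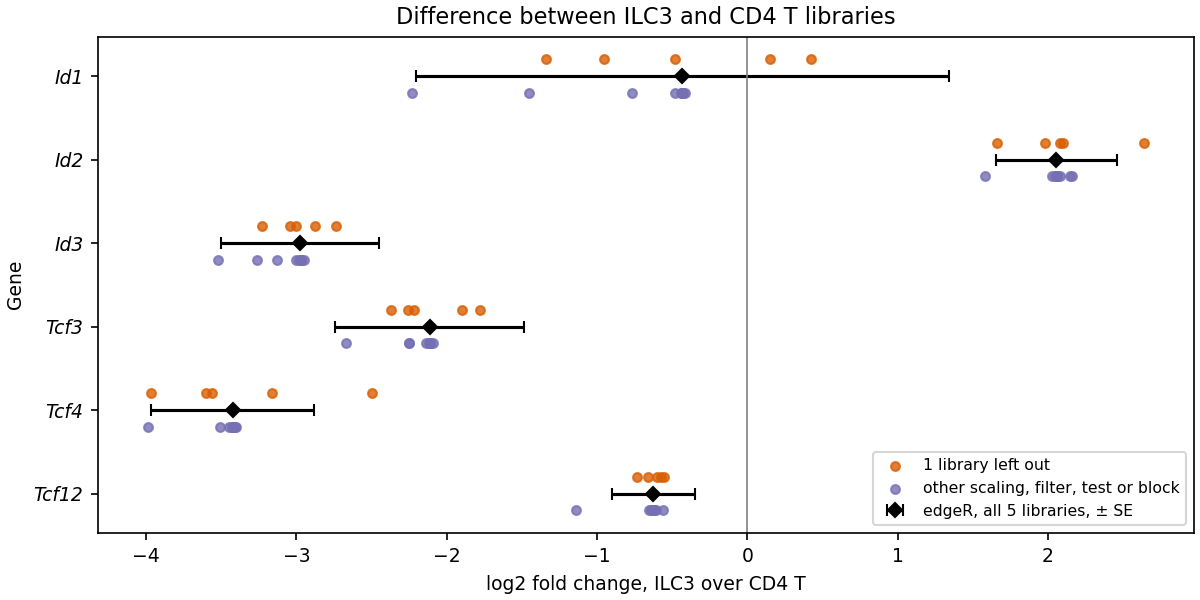
Log2 fold change of ILC3 over CD4 T for each gene. Black diamonds show edgeR over all 5 libraries with the SE, orange points the fits with 1 library left out, and violet points the other scalings, filters, tests and the replicate block. Id2 stays above 0, Id3, Tcf3, Tcf4 and Tcf12 stay below 0, and Id1 lies on both sides.

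Levels of different genes were compared per kilobase of the longest RefSeq-linked transcript, as CPM per kilobase. On that scale Id2 stood at 3330, 2890 and 2960 in ILC3, against 496 and 976 for CD4 T. That made it the most abundant of the 6 in every library. Among 20437 genes with a transcript length it ranked 11, 12 and 13 in the ILC3 libraries, while in the CD4 T libraries it ranked 141 and 69. Id2 made up at least 99.8% of the summed Id1, Id2 and Id3 transcripts per kilobase in ILC3, and 95.8% and 97.8% in CD4 T. The rest of that sum was mostly Id3 in CD4 T, with a share of 4.0% and 1.85%. The ratio of Id2 to Id3 per kilobase was 2110, 1110 and 900 in ILC3, against 23.9 and 52.9 for CD4 T.

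The make-up of the E protein transcripts differed in the order of its members. Tcf12 was the first of them in ILC3, with 70.3%, 59.2% and 52.4% of the summed Tcf3, Tcf4 and Tcf12 level per kilobase, and Tcf4 followed with 22.0%, 31.2% and 37.1%. In the CD4 T libraries Tcf4 came first, with 77.8% and 57.8%, and Tcf12 had 14.4% and 31.5%. The share of Tcf3 overlapped between the groups, from 7.69% to 10.5% in ILC3 and at 7.83% and 10.7% in CD4 T. The level of Tcf4 per kilobase was 0.314, 0.527 and 0.707 times that of Tcf12 in ILC3, but 5.40 and 1.84 times that of Tcf12 for CD4 T.

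The summed ID level per kilobase was 368, 220 and 257 times the summed E protein level in ILC3. In CD4 T it was 7.38 and 29.4 times. ID transcripts thus exceeded E protein transcripts in every library, and the ILC3 ratios lay above both CD4 T ratios. With counts not divided by length, the ratios were 71.4, 41.8 and 48.1 in ILC3, against 1.20 and 5.15 for CD4 T. With the summed exons of a gene or its median transcript as the length, 2 choices made after seeing the data, the ILC3 ratios ran from 161 to 468 and those of CD4 T from 5.38 to 40.0. These ratios are of transcripts and are given without a test.

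**Figure D3:**
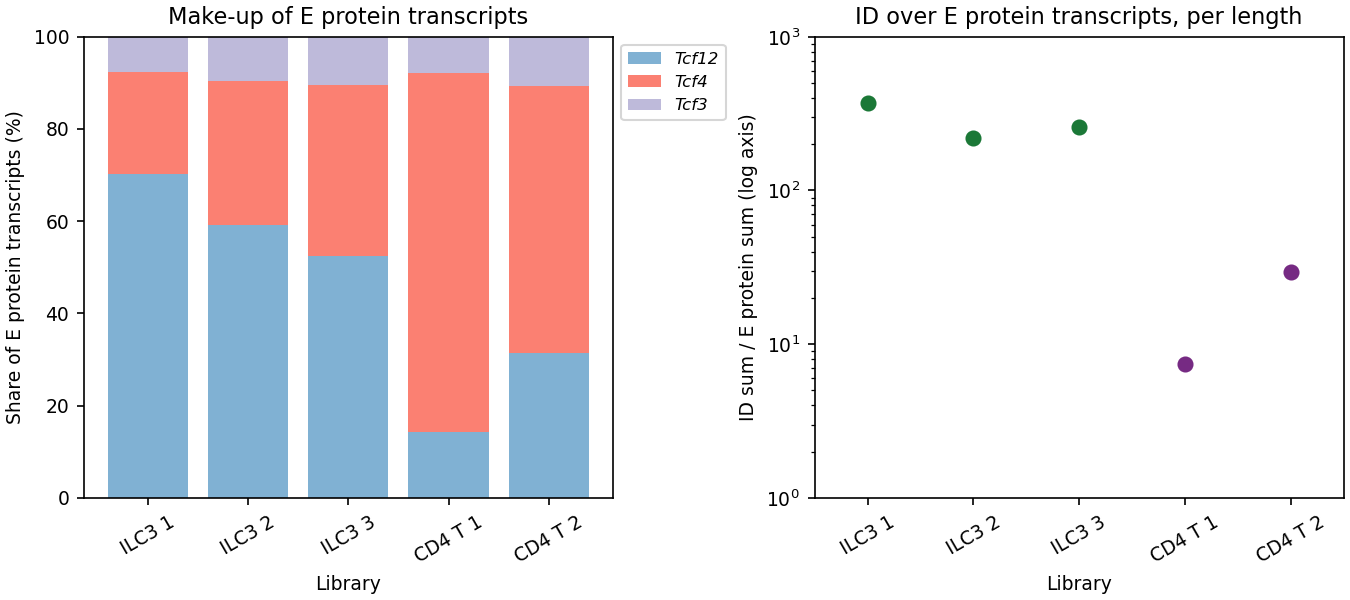
Left, the share in percent of Tcf12, Tcf4 and Tcf3 in their summed level per kilobase of transcript, for each library. Right, the summed level of Id1, Id2 and Id3 over that of Tcf3, Tcf4 and Tcf12 on a log axis, at 220 to 368 in ILC3 (green) and 7.38 and 29.4 in CD4 T (purple).

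Genes that belong to the pathway around the ID and E proteins were read from 5 lists. Over all 12747 tested genes, edgeR called 6.46% higher in ILC3 and 7.21% lower. The DESeq2 Wald test called 1914 of them higher and 1858 lower, and limma-voom 1317 and 1402. Counts at an unadjusted p under 0.05, and counts in fits that left out 1 library, are given below without the share over all genes. They are thus not read as an excess or a loss. The bHLH partners and corepressors of E proteins had 2 of 12 tested members higher and 1 lower, and the median log2 fold change of the list was -0.94, beside -0.10 over all tested genes. Lmo4, a LIM-only adaptor, was 392, 327 and 305 CPM in ILC3 and 67.4 and 41.7 CPM in CD4 T, a log2 fold change of 2.64 with an SE of 0.356 (edgeR adjusted p = 0.00868). Lmo2, the LIM-only adaptor that bridges E protein complexes, went the other way, at 1.41, 3.40 and 4.27 CPM in ILC3 and 102 and 38.9 CPM in CD4 T, a log2 fold change of -4.55 with an SE of 0.637 (edgeR adjusted p = 0.00973), and leaving out CD4 T replicate 1 gave -3.68. These 2 adaptors of 1 family thus differed in opposite directions. Bhlhe40, a repressor of the same helix-loop-helix class, stood 1.37 above CD4 T in ILC3 on the log2 scale (edgeR adjusted p = 0.0327). Leaving out any ILC3 library ended that call (edgeR adjusted p from 0.0914 to 0.0978), as did library size alone (0.171), and the adjusted p of all its alternatives spanned 1.07e-06 to 0.211. For the list, library size alone gave 1 higher and 3 lower, limma-voom 2 higher and 3 lower, and the DESeq2 Wald test 2 higher and 4 lower. Lower calls were 3 with receptor segment genes left out or no filter on low counts, and 2 without ILC3 replicate 3.

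Lymphoid genes known to be activated by E proteins went in both directions, with 4 of 15 tested members higher, 4 lower and 7 not called (median log2 -1.01). Without ILC3 replicate 2, 2 were called higher. Il7r, which encodes CD127, was higher by 2.52 on the log2 scale (edgeR adjusted p = 0.00795). Cd4 was lower (log2 -4.51, edgeR adjusted p = 0.00369). Il7r and Cd4 belong to the sort gates. Dntt, the terminal transferase of receptor rearrangement, had no count in ILC3 and 64.9 and 40.0 CPM in CD4 T, at least 1090-fold lower in ILC3 (edgeR adjusted p = 0.00351). The other rearrangement genes of the list, Rag1 and Rag2, had 3 and 0 counts over the CD4 T libraries and 0 in ILC3, and they are named after their values were seen.

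Plasmacytoid dendritic cell genes known to depend on Tcf4 were lower in ILC3 in 12 of 18 tested members and higher in 0, with a median log2 fold change of -3.99. At an unadjusted p under 0.05, and in the DESeq2 Wald test and limma-voom, 0 were higher and 15 lower. Without CD4 T replicate 1, edgeR called fewer of the list lower, and it also called fewer of all tested genes lower. Siglech was 0.0361, 0.0641 and 0.234 CPM in ILC3 and 745 and 814 CPM in CD4 T, a log2 fold change of -12.79 with an SE of 0.721 (edgeR adjusted p = 0.000655). Klk1, a kallikrein gene, had 6 counts over the ILC3 libraries and 481 and 429 CPM in CD4 T (log2 -12.05, edgeR adjusted p = 0.000571). Cox6a2, a cytochrome oxidase subunit, had 3 counts over ILC3, and CD4 T stood 10100-fold above it, with 95% counting bounds of 3470 and 49200 (edgeR adjusted p = 0.000602). Zeb2, a zinc finger repressor, was 2.53, 3.27 and 3.80 CPM in ILC3 and 44.4 and 42.5 CPM in CD4 T (log2 -3.76, edgeR adjusted p = 0.00412).

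Between the CD4 T libraries, genes of that list followed Tcf4 to different degrees, as read after their values were seen. In replicates 1 and 2, Spib, an Ets factor, stood at 176 and 62.3 CPM, Ccr9, a homing receptor, was 685 and 300.4 CPM, Pacsin1 was 63.7 and 16.4 CPM, and Ptprs, a receptor phosphatase, was 135 and 50.04 CPM. These 4 were the tested members more than 2 times as high in replicate 1, as Tcf4 was. Of all 18 tested members, 15 were higher in replicate 1, a count given without the share over all tested genes. The 3 higher in replicate 2 were Siglech (745 and 814 CPM), Ly6d (1730 and 1807 CPM) and Mzb1 (350 and 454 CPM). In the ILC3 libraries, Siglech and Klk1 stood near 0 while Tcf4 stood at 17.1 to 36.7 CPM. Promoters of the list held CANNTG in 12 of 15 windows, CAGCTG in 1 and CACCTG, another form of CANNTG, in 5. Among the tested genes with a window, the shares were 57.4%, 11.3% and 14.8%. Whether the list differs from these shares was not tested.

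**Figure D4:**
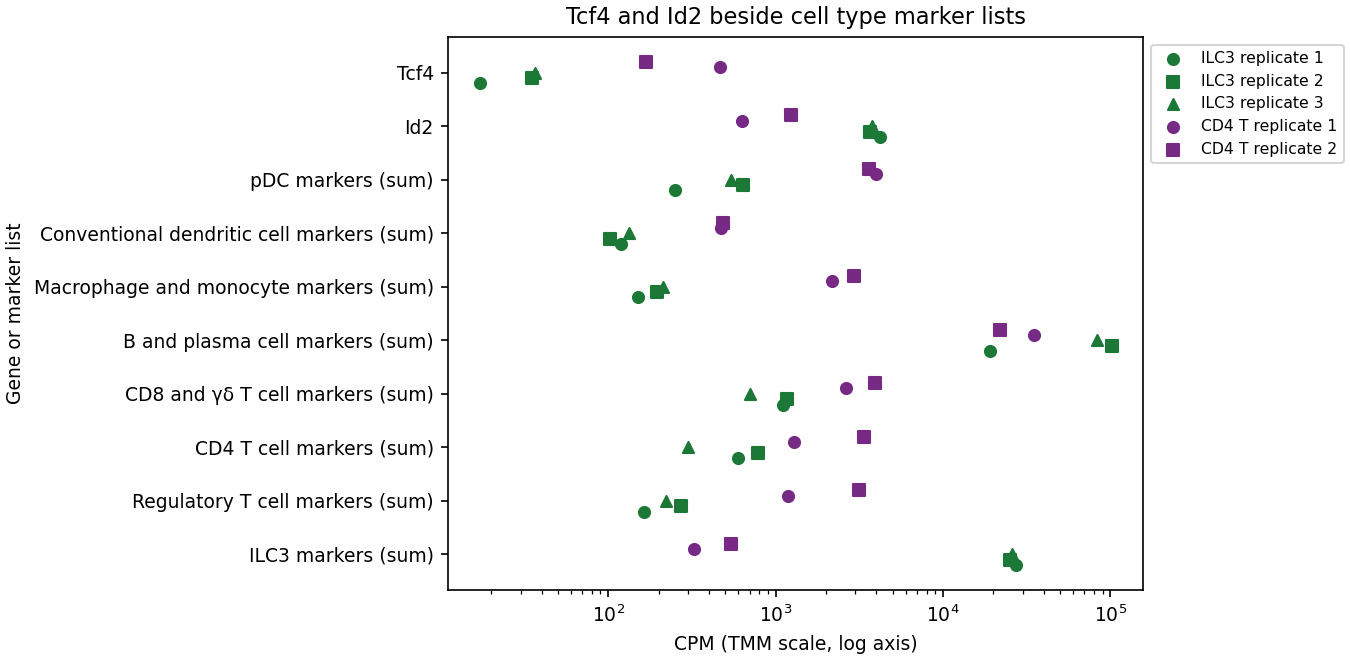
CPM on a log axis for Tcf4 and Id2 and for the summed levels of 8 marker lists in each library, ILC3 in green and CD4 T in purple. Tcf4 and the plasmacytoid dendritic cell (pDC) markers are higher in both CD4 T libraries, and the B and plasma cell markers are lowest in ILC3 replicate 1.

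Markers of other cell types went in different directions between the groups. Of 7 tested markers of plasmacytoid dendritic cells, 6 were lower in ILC3, with summed levels of 251 to 636 CPM in ILC3 and 3980 and 3620 CPM in CD4 T, and Tlr9 at 0 in ILC3. These 6 genes are also among the 12 lower genes of the list that depends on Tcf4, so the lists are not separate results. The highest of these markers was Ly6d, at 87.1, 422 and 388 CPM in ILC3 and 1730 and 1807 CPM in CD4 T. Of 9 macrophage and monocyte markers 8 were lower, with sums of 151 to 213 CPM in ILC3 and 2160 and 2950 CPM in CD4 T. Of 7 conventional dendritic cell markers 3 were lower and 2 higher, with sums of 103 to 133 CPM in ILC3 and 474 and 483 CPM in CD4 T. Of the 8 tested B and plasma cell markers edgeR called 0, with 2 higher at an unadjusted p under 0.05, and their sum, mostly the joining chain gene Jchain, was 19000, 102000 and 83500 CPM in ILC3 and 35200 and 21800 CPM in CD4 T. ILC3 replicate 1, the lowest ILC3 library for that sum, was also the lowest for Tcf4, Id3 and Tcf3. It was likewise the lowest ILC3 library for the sums of plasmacytoid dendritic cell, macrophage and monocyte, regulatory T cell and epithelial markers. The sums of the other marker lists were lowest in ILC3 replicate 2 or 3. The defining B cell gene Pax5 had no count in any library. Of the T cell lists, 5 of 8 CD4 T cell markers and 5 of 6 regulatory T cell markers were lower in ILC3. CD3 belongs to the sort gates, and Cd3d was lower in ILC3. Cd3g overlapped between the groups, at 362, 470 and 160.5 CPM in ILC3 and 280 and 1310 CPM in CD4 T. Cd3e, named after its values were seen, overlapped as well, and neither Cd3g nor Cd3e was called. Of 7 CD8 and γδ T cell markers 3 were lower and 1 higher, with a median log2 fold change of 1.79. The higher one was Trdc, the constant segment of the δ chain, at 475, 353 and 193 CPM in ILC3 against 0.832 and 2.27 for CD4 T. The part of these cells in the levels of Tcf4, Id3 and Tcf3 was not tested.

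Regulators that act with Id2 in innate lymphoid cells had 4 of 14 tested members higher and 1 lower, with a median log2 fold change of -0.56. At an unadjusted p under 0.05, 5 were higher and 6 lower, and the DESeq2 Wald test called the same numbers. Library size alone gave 2 higher and 3 lower. Without any 1 of the ILC3 libraries 2 were called higher and 0 lower, and without CD4 T replicate 2, 3 were called higher and 2 lower. Rora, a nuclear receptor of innate lymphoid cells, was 325, 266 and 314 CPM in ILC3 and 16.5 and 37.9 CPM in CD4 T, a log2 fold change of 3.47 with an SE of 0.461 (edgeR adjusted p = 0.00831), and leaving out CD4 T replicate 2 gave 4.21. Tcf7, which encodes the T cell and ILC progenitor factor TCF-1 and is no E protein despite its name, was higher by 2.86 on the log2 scale (edgeR adjusted p = 0.047). Its call was lost without any 1 of the ILC3 libraries (edgeR adjusted p from 0.0886 to 0.105) and with library size alone (0.0675), and the adjusted p of all its alternatives spanned 0.000187 to 0.105. Leaving out CD4 T replicate 1 gave 2.12 on the log2 scale, and leaving out CD4 T replicate 2 gave 4.5. Bcl11b, a T cell commitment factor, was lower (log2 -2.77, edgeR adjusted p = 0.0307), a call lost in all 5 fits that left out 1 library (edgeR adjusted p from 0.0641 to 0.0871, and from 7.87e-05 to 0.124 over all alternatives). The factors Nfil3, Tox and Gata3, named after their values were seen, did not pass the test, with log2 fold changes of 0.94, 0.25 and -1.11.

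Receptors and SMAD factors known to induce ID genes were read together with the EGR factors and with inhibitory SMADs such as Smad7. Of 13 tested members, 5 were lower in ILC3 and 0 higher (median log2 -1.33). At an unadjusted p under 0.05, 6 were lower and 1 higher, and the DESeq2 Wald test and limma-voom each called 1 higher. Smad7, an inhibitor of TGF-beta signalling, was 9.60, 8.26 and 6.49 CPM in ILC3 and 55.9 and 47.7 CPM in CD4 T, a log2 fold change of -2.67 with an SE of 0.348 (edgeR adjusted p = 0.00789). The TGF-beta receptor genes Tgfbr2 (log2 -1.86, edgeR adjusted p = 0.00953) and Tgfbr1 (log2 -2.10, edgeR adjusted p = 0.0166) were lower as well. Egr1, an immediate early factor that acts upstream of Id3 in T cells, was 31.3, 70.3 and 55.5 CPM in ILC3 and 248 and 215 CPM in CD4 T (log2 -2.15, edgeR adjusted p = 0.0182). The Tgfbr1 call was lost without any 1 of the ILC3 libraries (edgeR adjusted p from 0.0594 to 0.0663), with log2 -1.45 without CD4 T replicate 1, and the Egr1 call without ILC3 replicate 3 (0.0605) or CD4 T replicate 1 (0.0687). The adjusted p of all alternatives spanned 4.07e-06 to 0.0954 for Tgfbr1 and 7.29e-06 to 0.0832 for Egr1. Without each of ILC3 replicates 1 to 3 and CD4 T replicate 1, 3, 3, 2 and 3 members of the list were called lower, and without CD4 T replicate 2, 1 was called higher.

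Genes with the most similar pattern were ranked for each of the 6 by the root mean square difference of log2(CPM + 0.5), centred over the 5 libraries, among 4699 genes of at least 20 CPM. Closest to Id2 were Dynlt3 (0.0667), Rgs2 (0.0698) and Samsn1 (0.0793). Rgs2, a regulator of G protein signalling, was 1959, 1763 and 1839 CPM in ILC3 and 310.4 and 535 CPM in CD4 T. Among the genes closest to Tcf4 were Glcci1 (0.131) and Gatm (0.227). Gatm, an enzyme of creatine synthesis, was 2.78, 5.83 and 4.38 CPM in ILC3 and 68.1 and 20.7 CPM in CD4 T. For Id3 the order was Wipf1 (0.156), Adgre5 (0.193) and Pip4k2a (0.215), and for Tcf3 it was Iqgap1 (0.0964), Ywhag (0.127) and Sgpl1 (0.137). Tcf12 was closest to Bst2 (0.0644), Mvb12a (0.0717) and Ddt (0.0727). Id1 had no near neighbour on this measure, with Dr1 (0.482), Rabep1 (0.549) and Iah1 (0.561) first. With 5 libraries in 2 groups, such rankings mostly order genes by their difference between the groups.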

How the data were processed

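The authors deposited raw counts per gene for 5 libraries. A SMARTer low-input kit was used, per the labels' protocols. The submitters' processing notes name CASAVA 1.8.2, STAR 2.3.0 and mm10. Which tool, annotation and strand setting gave the counts is not given in the sources used here. Symbols and positions came from RefSeq for GRCm38.p6, the same assembly as mm10, for 25275 of 27179 genes. The other 1904 genes stayed in every fit and held 0.121% to 0.422% of a library. Transcript lengths came from GENCODE M21.

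Counts were fitted with edgeR 4.0.16 (R 4.3.3) after filterByExpr and TMM, with 3 residual degrees of freedom. Each SE was taken as the absolute log2 value divided by the root of F. A count of 0 was read as allowing up to 3 counts. Such limits and intervals hold for counting error alone, because the reads were amplified and carry no molecular identifiers. Alternatives were other scalings, receptor segment genes left out, other filters, robust dispersion, DESeq2 1.42.0, limma-voom (limma 3.58.1), a replicate block and each library left out.

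The members and gene lists were chosen with earlier results of these data known. From each pathway list the text names up to 4 called genes with the smallest p, with both directions where both were called, or 2 of the highest level. It names marker genes of the highest level and those at 0, and 3 genes of most similar pattern to each member. Some genes the rule takes are not reported here, and others are marked as named after their values were seen.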

Additional observations from a re-analysis of the deposited data

How the results depend on the processing

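With 2 CD4 T libraries and 3 ILC3 libraries, 1 library can move a call. The range of log2 fold changes over the fits that left out 1 library was -1.34 to 0.42 for Id1, 1.66 to 2.64 for Id2, -3.23 to -2.74 for Id3, -2.37 to -1.78 for Tcf3, -3.97 to -2.50 for Tcf4 and -0.74 to -0.55 for Tcf12. In those fits 269 to 1712 genes were called higher and 306 to 960 lower, in place of 824 and 919. With library size alone, 384 were called higher and 1502 lower, the median log2 fold change of all genes was -0.60 in place of -0.10, and the share of called genes that were higher was 20.4% in place of 47.3%. The log2 fold change of Id2 was then 1.58 and no longer passed, and that of Tcf3 was -2.67 and passed. Tcf3 also passed in the DESeq2 Wald test (-2.11) and in limma-voom (-2.25). The DESeq2 Wald test called 1914 genes higher and 1858 lower, limma-voom 1317 and 1402, and the fit without a filter on low counts called 1250 higher. The adjusted p of the 15 alternatives lay between 2.09e-07 and 0.161 for Id2, 1.9e-06 and 0.0753 for Id3, 2.22e-08 and 0.0695 for Tcf4, 0.00571 and 0.261 for Tcf3, and 0.0615 and 0.454 for Tcf12.

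Replicate numbers are shared by the groups, and the labels do not say whether they pair the libraries. Deviations from the group mean correlated at -0.0235 and -0.0338 between same-numbered libraries over 12747 genes. Deviations of 2 CD4 T libraries from their own mean mirror each other, so these values cannot decide whether libraries are paired. With the replicate block, 215 genes were called higher and 305 lower, and none of Id2 (log2 2.16, edgeR adjusted p = 0.161), Id3 (-3.26, 0.0753) and Tcf4 (-3.51, 0.0695) passed, in a fit with 1 residual degree of freedom. The log2 fold changes of 3 marker genes changed sign without CD4 T replicate 2, and leaving out 1 library gave -1.98 to 0.26 for Cd3g, -1.19 to 1.12 for Gzmb and -0.588 to 0.245 for Areg, with 0.014 for Gzmb under the block. Except where a scaling or construction is named, the cause of a change was not tested. Id4, at 34 counts over ILC3 and 0 over CD4 T, was too low to be tested.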
